A study of Mus musculus with 2 samples.

Results

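Genes whose products modify, fold and cross-link collagen, 10 in number, were followed by name in both libraries: the prolyl 4-hydroxylase subunits P4ha1, P4ha2 and P4hb, the lysyl hydroxylases Plod1, Plod2 and Plod3, the collagen chaperone Serpinh1, and the lysyl oxidases Lox, Loxl1 and Loxl2. All 10 have a column in both tables, out of 25595 genes present in either table. They were read over cells in which 300 or more genes were detected and mitochondrial transcripts made up no more than 25% of UMIs (unique molecules counted per cell and gene), by cell class and library, and against the share of a cell's UMIs that came from Col1a1 and Col1a2, the genes of the type I collagen chains.

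Collagen chains are hydroxylated on proline and lysine in the endoplasmic reticulum, and hydroxyproline is needed for a triple helix that is stable at body temperature. The chaperone encoded by Serpinh1, HSP47, binds the folded procollagen until it leaves the endoplasmic reticulum, and secreted lysyl oxidases then oxidise lysine and hydroxylysine so that neighbouring molecules become cross-linked. In the brain most fibrillar collagen lies in the meninges and around vessels, where fibroblasts, arachnoid cells and mural cells are found.

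The N-PRα-KO library came from mice carrying Nestin-Cre and floxed Pdgfra, and the WT library from C57BL/6J mice. Nestin-Cre acts mainly in neural progenitors and their progeny, and both libraries were made from cerebral cortex with its meninges, sorted for the Pdgfra product CD140a with magnetic beads and captured on the BD Rhapsody system. The series set out to describe activated fibroblasts in a cortex with too little myelin. Neither the age and sex of the mice nor the number pooled is given in the labels, and an effect of these, or of preparing and processing the libraries separately, cannot be told apart from genotype.

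There were 8336 N-PRα-KO barcodes with 41982217 UMIs, and 11438 WT barcodes with 43459947 UMIs. The filter passed 4196 N-PRα-KO and 10069 WT cells, and after doublet removal the median cell had 5781 UMIs in N-PRα-KO and 3264 in WT. The libraries had 105 barcodes in common. Pdgfra, the deleted gene, stood at 1931 CPM (UMIs per 1000000 of the class) in 66 N-PRα-KO oligodendrocyte-lineage-like cells and at 4669 CPM in 5022 WT cells, while the 949 N-PRα-KO cells called fibroblast-like had 714 CPM and the 504 WT ones 873 CPM. Fibroblast markers summed to 10973 CPM in the N-PRα-KO fibroblast-like cells and 11979 CPM in the WT ones, and all 10 were detected in both. In 9 classes with at least 50 cells in each library the levels could be set side by side. The microglia-like class (582 N-PRα-KO and 641 WT cells) included cluster 24, with 33 N-PRα-KO and 124 WT cells. The top genes of that cluster held the neutrophil markers S100a8 and S100a9 beside the microglia markers P2ry12 and Siglech. Arachnoid-barrier-like cells (59 in N-PRα-KO, 118 in WT) and mural-like cells (363 in N-PRα-KO, 52 in WT) of the libraries shared a cluster at Leiden resolution 1. In the other 7 classes no cluster held 50 cells of both. At the finer resolution 2 this sharing was lost. Arachnoid-barrier-like clusters then held 59 N-PRα-KO with 10 WT cells and 0 N-PRα-KO with 108 WT cells. Mural-like clusters held 286 N-PRα-KO with 4 WT cells and 77 N-PRα-KO with 48 WT cells. With 1 library per genotype there was no test and no replicate check. The 95% intervals given below cover counting error only.

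The classes with the highest levels differed from gene to gene. Fibroblast-like cells had the highest level for 4 of the 10 genes (N-PRα-KO) and for 2 of 10 (WT), and arachnoid-barrier-like cells for 3 (N-PRα-KO) and 5 (WT). Only Serpinh1 and Loxl2 were highest in fibroblast-like cells of both libraries, as the plot of levels by class shows.

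**Figure D1:**
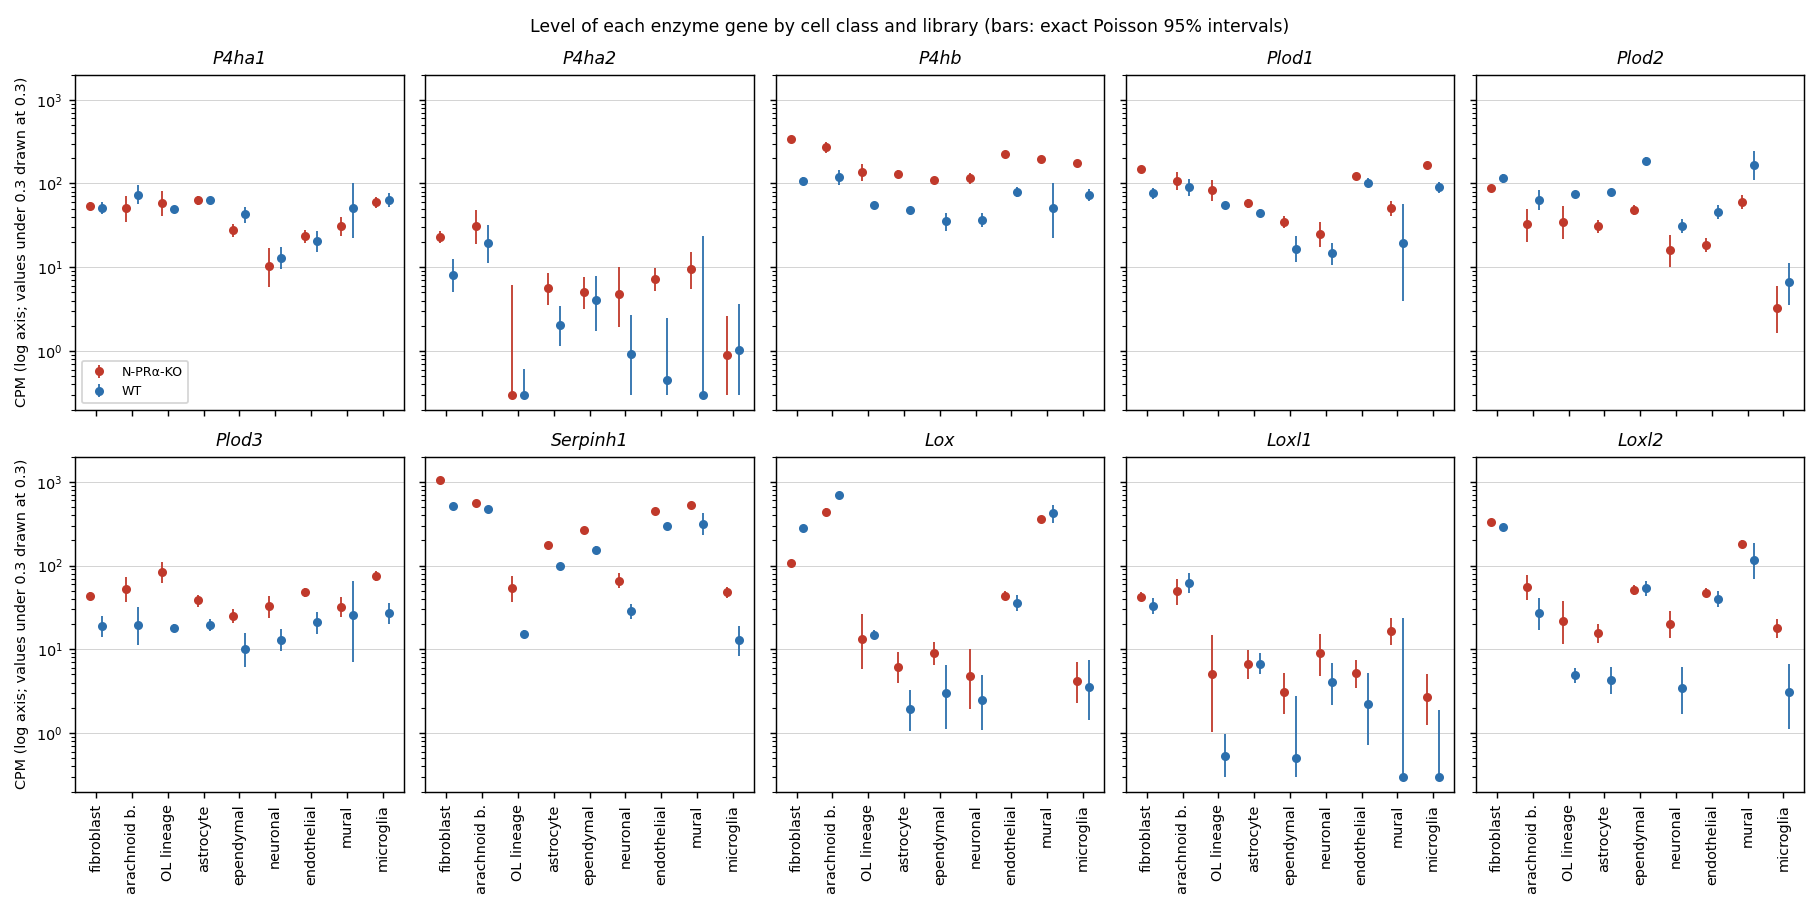
Level of each gene in CPM (log axis) in the 9 cell classes, with the N-PRα-KO library in red on the left and the WT library in blue on the right of each pair; points are class sums and bars are exact Poisson 95% intervals. Lox, Loxl2 and Serpinh1 stand high in fibroblast-like, arachnoid-barrier-like or mural-like cells and low in microglia-like cells, whereas P4ha1, P4hb, Plod1 and Plod3 are also present in microglia-like cells.

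The 3 prolyl 4-hydroxylase genes, which encode parts of 1 enzyme, showed 3 different patterns. P4ha1 and P4ha2 encode alternative catalytic alpha subunits, and P4hb encodes the beta subunit, which is also protein disulfide isomerase and serves proteins other than collagen. Their promoters are shown because P4ha1 was alike in the libraries, P4ha2 was largely limited to fibroblast-like and arachnoid-barrier-like cells, and P4hb was higher in the N-PRα-KO library everywhere. The sequences are from RefSeq on GRCm38.p6, 250 bases before to 50 after the gene start that RefSeq gives, 5′ to 3′ on the gene's strand, at chr10:59323046-59323345 (plus strand) for P4ha1, chr11:54100674-54100973 (plus) for P4ha2 and chr11:120573204-120573503 (minus) for P4hb. For P4ha2 the annotation used below, GENCODE M21, has the gene start upstream, at 54100095, so this window lies inside that gene and shows only the start in RefSeq. Capitals mark ACGTG, a core that hypoxia-inducible factors can bind, and its reverse complement CACGT.
P4ha1: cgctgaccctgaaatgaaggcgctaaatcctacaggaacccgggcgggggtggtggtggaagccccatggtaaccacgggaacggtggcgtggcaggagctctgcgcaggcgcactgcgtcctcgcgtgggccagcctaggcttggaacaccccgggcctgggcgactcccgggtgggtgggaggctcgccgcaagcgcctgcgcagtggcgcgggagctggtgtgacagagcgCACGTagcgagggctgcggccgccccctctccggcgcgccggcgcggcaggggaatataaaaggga
P4ha2: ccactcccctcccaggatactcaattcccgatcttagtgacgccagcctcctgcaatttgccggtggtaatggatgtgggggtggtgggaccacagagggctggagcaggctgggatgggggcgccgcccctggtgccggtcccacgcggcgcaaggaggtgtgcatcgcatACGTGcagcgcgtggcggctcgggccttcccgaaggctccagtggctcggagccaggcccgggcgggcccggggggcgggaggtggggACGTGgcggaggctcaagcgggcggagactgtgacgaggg
P4hb: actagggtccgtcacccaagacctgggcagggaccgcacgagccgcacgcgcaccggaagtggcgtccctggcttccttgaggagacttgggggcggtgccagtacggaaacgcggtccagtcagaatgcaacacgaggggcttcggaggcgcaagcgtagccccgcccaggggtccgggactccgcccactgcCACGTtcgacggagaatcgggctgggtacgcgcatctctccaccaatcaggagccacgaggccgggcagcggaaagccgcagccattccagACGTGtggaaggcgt
P4ha1 held 1 match, and P4ha2 and P4hb held 2 each. Of 32851 promoters of the same length, 19.6% held at least 1. Promoter entries were also matched for Plod1 with 0 matches, and for Plod3 and Serpinh1 with 1 each. The endoplasmic reticulum stress response element, by its consensus, was in none of these 6 windows on either strand and in 0.119% of all promoters. Plod2, Loxl1 and Loxl2 had no entry, and Lox is not shown.

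P4ha1 (chromosome 10, 59323296 to 59373304) stood in fibroblast-like cells at 53.7 CPM (N-PRα-KO) and 51.1 CPM (WT), a log2 ratio of 0.07 (interval -0.22 to 0.37). It was as high in classes that make little collagen. Astrocyte-like cells had 63.1 CPM in N-PRα-KO and 63.3 CPM in WT, and microglia-like cells 59.6 CPM in N-PRα-KO and 63.8 CPM in WT. Across the 8 classes in which it reached 20 CPM in either library, its log2 ratio lay between -0.73 and 0.25, and it passed 2-fold in none.

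P4ha2 (chromosome 11, 54100095 to 54131665) stood in fibroblast-like cells at 22.8 CPM (N-PRα-KO, 150 UMIs) and 8.19 CPM (WT, 21 UMIs), a log2 ratio of 1.48 (0.81 to 2.21). Arachnoid-barrier-like cells had 30.9 CPM in N-PRα-KO and 19.7 CPM in WT, and the other 7 compared classes were below 10 CPM in both libraries. Its fibroblast-like ratio rests on few WT molecules.

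P4hb (chromosome 11, 120560298 to 120573253) was the gene whose difference was shared most widely. Fibroblast-like cells had 342 CPM (N-PRα-KO) and 107 CPM (WT; log2 ratio 1.67, 1.49 to 1.86), and endothelial-like cells had 225 CPM in N-PRα-KO and 79.4 CPM in WT. It was more than 2-fold higher in the N-PRα-KO library in all 9 classes, with log2 ratios from 1.20 to 1.91. The largest, in mural-like cells, rests on 8 WT UMIs (0.91 to 3.13). Intervals also reached below 2-fold in arachnoid-barrier-like (0.83 to 1.57) and oligodendrocyte-lineage-like cells (0.97 to 1.64). A UMI of P4hb was found in fibroblast-like cells at a share of 83.6% (N-PRα-KO) and 37.3% (WT), and of 48.6% (N-PRα-KO) and 19.05% (WT) after every cell was thinned to 2000 UMIs.

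Lysyl hydroxylases differ in their targets: Plod1 mainly serves helical lysines, and Plod2 the telopeptide lysines that lead to hydroxylysine-derived cross-links. The Plod3 product also adds glucose to hydroxylysine that already carries galactose. Plod1 (chromosome 4, 147909753 to 147936767) stood in fibroblast-like cells at 149 CPM (N-PRα-KO) and 76.05 CPM (WT; log2 ratio 0.97, 0.75 to 1.20). It was as high in microglia-like cells, at 168 CPM in N-PRα-KO and 90.8 CPM in WT, and above 0 in log2 ratio in 9 of 9 classes. Its interval covered 0 in arachnoid-barrier-like cells (-0.24 to 0.74) and in mural-like cells (-0.21 to 3.69, with 3 WT UMIs). Plod3 (chromosome 5, 136987019 to 136996648) was at 43.2 CPM in N-PRα-KO and 19.1 CPM in WT in fibroblast-like cells (1.18, 0.74 to 1.65). It was at least 2-fold higher in the N-PRα-KO library in 7 of 9 classes. In fibroblast-like cells and 4 of the other classes it was below 20 CPM in WT, so it could enter only by differing. With the GC trend given below removed, Plod3 stayed at least 2-fold higher only in the oligodendrocyte lineage (1.30). Its exons share 529 bases with Znhit1 on the opposite strand, and no source used here gives the strand setting of the counting, so reads of the 2 genes may be mixed.

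Plod2 (chromosome 9, 92542223 to 92608428) went the other way. Its fibroblast-like level was 87.3 CPM (N-PRα-KO) and 115 CPM (WT; log2 ratio -0.40, -0.61 to -0.20). The difference was larger in ependymal-like cells, at 48.7 CPM in N-PRα-KO and 185 CPM in WT (-1.93, -2.17 to -1.68), where the WT level was the highest of its 9 classes, though its interval overlapped that of mural-like cells at 168 CPM. In mural-like cells the N-PRα-KO level was 60.4 CPM. Plod2 was below 0 in all 8 classes in which it reached 20 CPM, and at least 2-fold lower in 5. Microglia-like cells had 3.30 CPM in N-PRα-KO and 6.63 CPM in WT.

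Serpinh1 (chromosome 7, 99345376 to 99353239) averaged 1043 CPM (1018 to 1068) over N-PRα-KO fibroblast-like cells and 519 CPM (492 to 548) over WT ones, a log2 ratio of 1.01 (0.92 to 1.09). In the N-PRα-KO library the order of the next classes was arachnoid-barrier-like (553 CPM), mural-like (525 CPM) and endothelial-like (450 CPM) cells, and the intervals of the first pair overlapped. The WT library had the same order, at 471, 316 and 300 CPM, but there the intervals of fibroblast-like and arachnoid-barrier-like cells overlapped, as did those of mural-like and endothelial-like cells. The log2 ratio was above 0 in 9 of 9 classes and smallest in arachnoid-barrier-like cells (0.23, 0.02 to 0.44).

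Lox (chromosome 18, 52516067 to 52529867) was highest outside the fibroblast-like class. Arachnoid-barrier-like cells had 435 CPM (N-PRα-KO, 386 to 489) and 698 CPM (WT, 642 to 758), mural-like cells 355 CPM in N-PRα-KO and 420 CPM in WT, fibroblast-like cells 106 CPM in N-PRα-KO and 284 CPM in WT and endothelial-like cells 43.8 CPM in N-PRα-KO and 36.1 CPM in WT. In each library the intervals of these 4 classes did not overlap their neighbours in that order. The fibroblast-like difference was a log2 ratio of -1.42 (-1.58 to -1.27), against -0.68 (-0.89 to -0.47) in arachnoid-barrier-like cells, -0.24 (-0.61 to 0.15) in mural-like cells and 0.28 (-0.09 to 0.66) in endothelial-like cells. A Lox UMI was found in fibroblast-like cells at a share of 26.1% (N-PRα-KO) and 49.8% (WT), and of 12.5% (N-PRα-KO) and 33.1% (WT) after thinning. In microglia-like cells the unthinned shares were 2.23% in N-PRα-KO and 1.09% in WT.

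Among N-PRα-KO endothelial-like cells, Lox was concentrated in a small cluster. Cluster 28 (71 cells), led by Gkn3, Ptprb, Cldn5 and Sema3g, of which Gkn3 and Sema3g are known from arterial endothelium, had 223 CPM (172 UMIs). Cluster 9 (476 cells) had 15.3 CPM (74 UMIs). The WT endothelial-like cells lay almost wholly in cluster 16 (348 cells) at 35.7 CPM, as clustered at resolution 1. At resolution 2 the N-PRα-KO clusters kept these values, and the WT cells split into cluster 38 (62 cells) at 126 CPM (53 UMIs) and cluster 20 (286 cells) at 14.8 CPM (27 UMIs). Markers of mural cells, in which Lox was high, ran beside it in sum, and all 8 were detected in each of these clusters. They summed to 8784 CPM in N-PRα-KO cluster 28 and 2233 CPM in N-PRα-KO cluster 9. The WT sums were 10688 CPM in cluster 38 and 2885 CPM in cluster 20. Rgs5 made up most of each sum, and Kcnj8 and Higd1b went the other way. Kcnj8 was at 9.09 CPM in N-PRα-KO cluster 28 and 54.8 CPM in N-PRα-KO cluster 9. In the WT library it was at 7.16 CPM in cluster 38 and 75.8 CPM in cluster 20. Higd1b was at 55.8 CPM in N-PRα-KO cluster 28 and 67.4 CPM in N-PRα-KO cluster 9. Its WT levels were 38.2 CPM in cluster 38 and 53.3 CPM in cluster 20. The part of mural markers in the Lox levels was not tested. These cluster values were chosen after they were seen.

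Loxl2 (chromosome 14, 69609068 to 69695834) was at 328 CPM in N-PRα-KO and 287 CPM in WT fibroblast-like cells (log2 ratio 0.19, 0.07 to 0.31), followed by mural-like cells at 180 CPM in N-PRα-KO and 116 CPM in WT. Loxl1 (chromosome 9, 58287738 to 58313186) encodes an oxidase known for its role in elastic fibres. It was at 42.4 CPM in N-PRα-KO and 33.1 CPM in WT in fibroblast-like cells (0.36, 0.00 to 0.72) and at 49.4 CPM in N-PRα-KO and 62.7 CPM in WT in arachnoid-barrier-like cells (-0.34, -1.03 to 0.32), and below 20 CPM in the other compared classes. The related Loxl3 was at 21.6 CPM in N-PRα-KO and 15.2 CPM in WT in fibroblast-like cells, and Loxl4 had 4 N-PRα-KO and 0 WT UMIs. These related genes were named after their values were seen.

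In fibroblast-like cells 4 of the 10 genes were at least 2-fold higher in the N-PRα-KO library (P4ha2, P4hb, Plod3 and Serpinh1), where 16.0% of 7312 genes reaching 20 CPM somewhere in the pair were. Lox alone was at least 2-fold lower, where 8.33% of genes were. P4ha2 and Plod3 reached 20 CPM only in the library where they were high, so the count describes these libraries and supports nothing. With 20 CPM asked of the mean of both libraries, a limit chosen after seeing the data, 3 of 9 genes were at least 2-fold higher (13.4% of 6534 genes), with P4ha2 left out. The median log2 ratio was 0.66 for the 10 genes and 0.36 for those 9, against -0.01 and -0.03 for all genes. Neither collagen chain gene went with them: Col1a1 had 4876 CPM (N-PRα-KO) and 9298 CPM (WT; -0.93), and Col1a2 had 6624 CPM in N-PRα-KO and 10005 CPM in WT (-0.60). For every 100 UMIs of type I collagen there were 19.3 UMIs of the 10 genes in N-PRα-KO fibroblast-like cells and 7.78 in WT ones. For the prolyl 4-hydroxylase genes the numbers were 3.64 in N-PRα-KO and 0.86 in WT, for the lysyl hydroxylase genes 2.43 in N-PRα-KO and 1.09 in WT, and for the lysyl oxidase genes 4.14 in N-PRα-KO and 3.13 in WT. The last sum joins unlike genes. Beside 75597 N-PRα-KO and 49499 WT collagen UMIs, Lox had 696 in N-PRα-KO and 728 in WT. Loxl2 had 2156 in N-PRα-KO and 737 in WT, and Loxl1 279 and 85. Per collagen UMI, Lox was thus lower in N-PRα-KO. These numbers were not split by cluster or freed of the GC trend given below.

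The same count was made in the 8 other classes, over the genes that reached 20 CPM in each. In arachnoid-barrier-like cells 3 of 10 were at least 2-fold higher (17.5% of all genes) and 0 lower (10.3%), in the oligodendrocyte lineage 4 of 7 higher (17.4%) and 1 lower (13.2%), and in astrocyte-like cells 1 of 6 higher (14.1%) and 1 lower (7.57%). Ependymal-like cells had 3 of 7 higher (14.4%) and 1 lower (6.06%), neuronal-lineage-like cells 4 of 6 higher (17.2%) and 0 lower (5.90%), and endothelial-like cells 2 of 8 higher (17.3%) and 1 lower (9.47%). Mural-like cells had 2 of 8 higher (11.5%) and 1 lower (13.4%), and microglia-like cells 3 of 5 higher (16.3%) and 0 lower (9.32%). Outside fibroblast-like cells, 10 of the 22 higher entries and 1 of the 5 lower ones were below 20 CPM in the other library, among them Plod3 in 4 classes, and could enter only by differing. P4hb reached 20 CPM in both libraries and was among the higher genes in every class. The 1 lower gene was Plod2 wherever there was one outside fibroblast-like cells. The higher genes included Serpinh1 in the oligodendrocyte lineage, neuronal-lineage-like and microglia-like cells. Col1a1 and Col1a2 were higher there too, at log2 ratios of 1.66 and 2.04, 1.46 and 1.78, and 1.16 and 1.74 in that order. Both were below 0 in arachnoid-barrier-like cells (-0.96 and -0.68). The part of free RNA in these counts was not tested.

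A pair of features was set beside these differences. The log2 ratio of a gene followed the GC content of its last 500 transcript bases in every class, with a Spearman rho over genes from 0.48 to 0.66. Those bases were 33.2% GC in Plod2 and 33.4% in Lox, and 51.6% in P4hb, 52.6% in Plod3 and 53.2% in Plod1 and Loxl1. With this trend removed the fibroblast-like log2 ratios became 0.94 for P4hb, 0.97 for P4ha2, 0.90 for Serpinh1, 0.35 for Plod3, 0.09 for Plod1, 0.02 for Plod2 and -1.01 for Lox, and Loxl1 changed sign to -0.52. No gene then stood at least 2-fold higher, Lox was still at least 2-fold lower, and the median was 0.18. A share over all genes is not given for these counts. Over the 9 classes P4hb stayed above 0 in 9 (0.41 to 1.39) and Serpinh1 in 9 (0.15 to 1.80), Plod3 in 8, and Plod1 in only 3, while Plod2 was above 0 in 1 of 8.

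The other feature was the level of genes of 1 class in cells of another, which may include free RNA. Its relation to the ratios was not tested. Type I collagen in microglia-like cells stood at 2.65% of its fibroblast-like level in the N-PRα-KO library and 0.571% in the WT library. Serpinh1 stood there at 4.57% in N-PRα-KO and 2.46% in WT, Lox at 3.96% in N-PRα-KO and 1.26% in WT, and Loxl2 at 5.48% in N-PRα-KO and 1.07% in WT. P4hb stood at 51.5% in N-PRα-KO and 68.04% in WT, Plod1 at 113% in N-PRα-KO and 119% in WT, Plod3 at 174% in N-PRα-KO and 142% in WT and P4ha1 at 111% in N-PRα-KO and 125% in WT. How much of the Serpinh1 in microglia-like cells (47.7 CPM in N-PRα-KO and 12.8 CPM in WT), or of the Loxl2 in neuronal-lineage-like cells (20.1 CPM in N-PRα-KO and 3.42 CPM in WT), was free RNA was not tested. In fibroblast-like cells all 8 mural markers were detected in the N-PRα-KO library (summed 527 CPM) and 6 of 8 in the WT library (91.3 CPM), against 34586 CPM in N-PRα-KO and 38341 CPM in WT in mural-like cells. Choroid plexus markers summed there to 1775 CPM in N-PRα-KO (6 of 6 detected) and 220 CPM in WT (4 of 6), and oligodendrocyte-lineage markers to 183 CPM in N-PRα-KO and 425 CPM in WT. Their part in the fibroblast-like ratios was not tested.

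**Figure D2:**
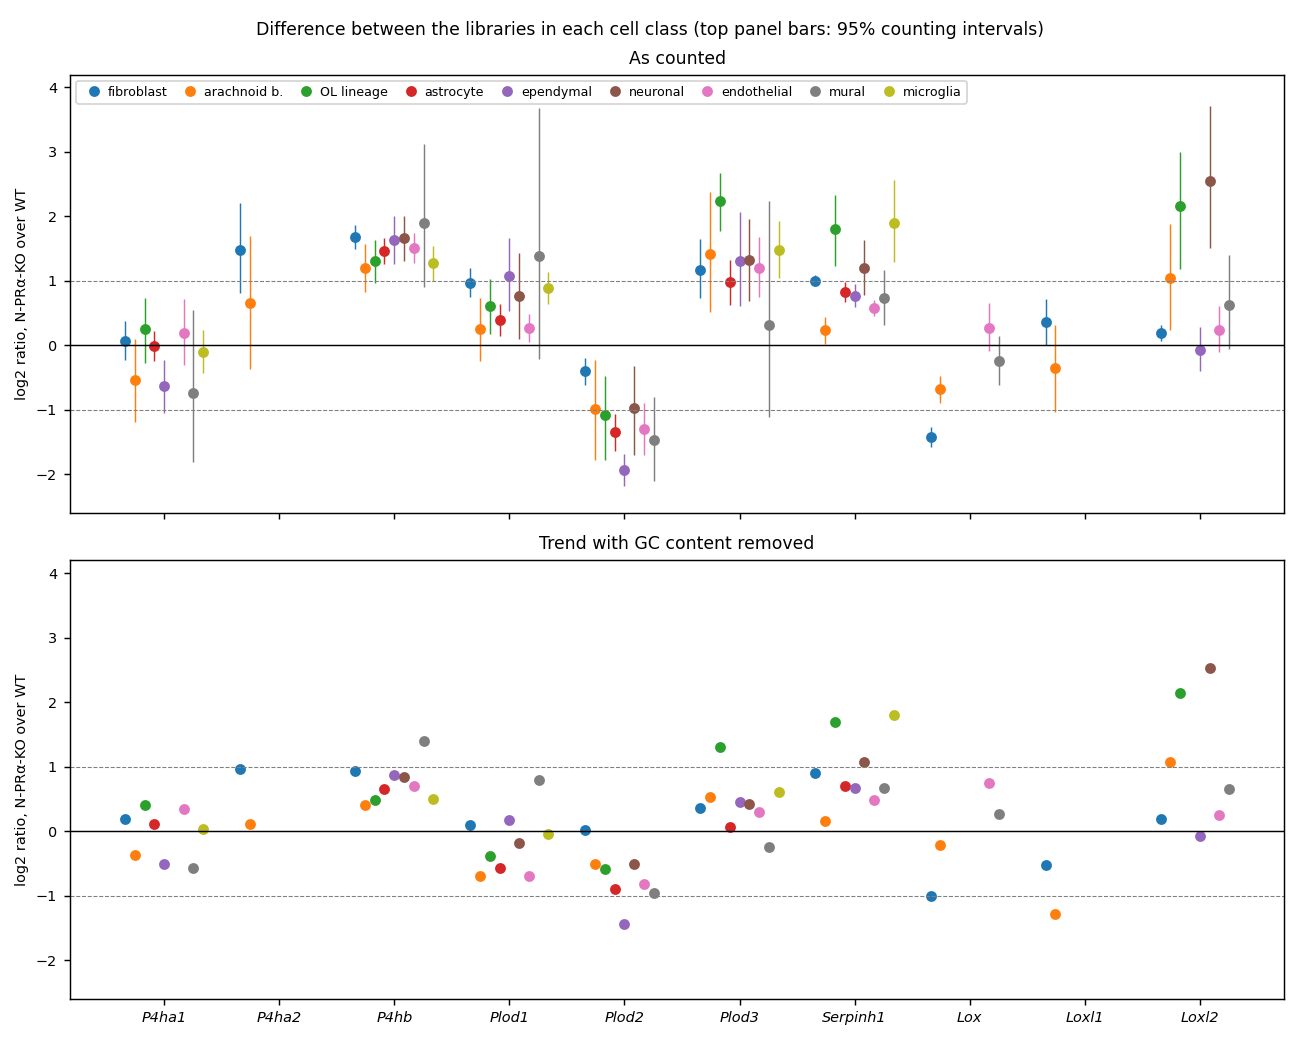
Log2 ratio between the libraries (N-PRα-KO over WT) for each gene in every class where it reached 20 CPM in either library; colours are cell classes, dashed lines mark 2-fold and bars in the top panel are 95% counting intervals. The top panel shows values as counted and the bottom panel values with the GC trend removed; P4hb and Serpinh1 lie above 0 in all 9 classes of both panels, and Lox in fibroblast-like cells stays at or below -1.01.

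The fibroblast-like class held different clusters in the libraries. The N-PRα-KO cells fell into cluster 4 (633 cells; Col15a1, Lum and Col6a3 among its top genes) and cluster 17 (315 cells; Slc6a20a and Aldh1a2), and the WT cells into cluster 27 (131 cells; Lum and Tbx18) and cluster 14 (368 cells; Slc6a20a and Aldh1a2). The 10 genes and the type I collagen genes were not among the genes used for clustering. Matching clusters by Lum and by Aldh1a2, a choice made after the clusters were seen, split the enzymes.

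Loxl2 differed more between the clusters of a library than between libraries. It was at 388 CPM in N-PRα-KO cluster 4 and 399 CPM in WT cluster 27 (log2 ratio -0.05, -0.22 to 0.13), and at 197 CPM in N-PRα-KO cluster 17 and 239 CPM in WT cluster 14 (-0.28, -0.48 to -0.08). P4hb differed between libraries in both matches, at 380 CPM in N-PRα-KO and 141 CPM in WT in the Lum clusters (1.43) and 260 CPM in N-PRα-KO and 93.5 CPM in WT in the Aldh1a2 clusters (1.49). Serpinh1 was at 1203 CPM in N-PRα-KO and 681 CPM in WT (0.82) and at 688 CPM in N-PRα-KO and 449 CPM in WT (0.62), so in neither match did it reach 2-fold. Plod1 was at 173 CPM in N-PRα-KO and 80.7 CPM in WT in the Lum clusters (1.09) and 97.3 CPM in N-PRα-KO and 74.8 CPM in WT in the Aldh1a2 clusters (0.39).

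Lox had its lowest fibroblast-like level in N-PRα-KO cluster 4, at 57.6 CPM (50.8 to 65.0), against 208 CPM (177 to 242) in WT cluster 27, a log2 ratio of -1.72 (-2.004 to -1.43). N-PRα-KO cluster 17 had 203 CPM and WT cluster 14 had 319 CPM (-0.64, -0.83 to -0.46). Lox was thus lower in the N-PRα-KO library in both matches, and past 2-fold in the Lum clusters only. Among Aldh1a2 clusters 1 gene, P4hb, was at least 2-fold higher and none was lower, with no share over all genes given beside it.

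**Figure D3:**
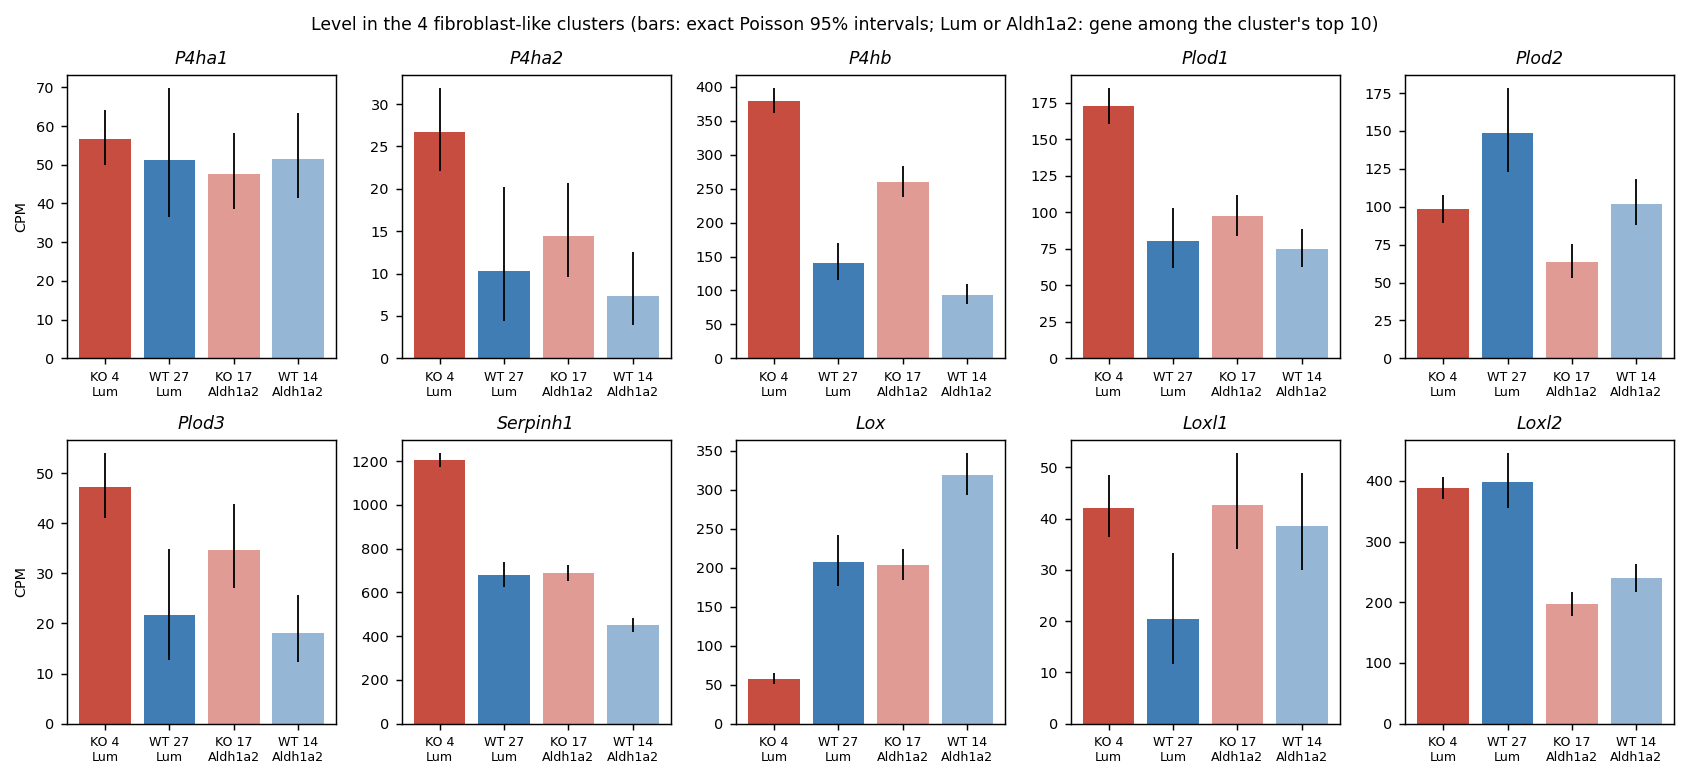
Level in CPM in the fibroblast-like clusters with at least 50 cells, each N-PRα-KO cluster (red) left of the WT cluster (blue) that shares Lum (dark) or Aldh1a2 (pale) among its top genes; bars carry exact Poisson 95% intervals. Loxl2 stands at 388 CPM in the N-PRα-KO and 399 CPM in the WT Lum cluster, whereas P4hb is higher in the red bar of each pair and Lox is lowest in N-PRα-KO cluster 4.

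Whether the enzymes track collagen from cell to cell was read within each library, by ranking fibroblast-like cells on the share of Col1a1 and Col1a2 in their UMIs and cutting them into 5 bins of equal size. In the N-PRα-KO library the bins held 189 or 190 cells and the collagen share ran from 0.415% in the lowest to 2.80% in the highest. In the WT library they held 100 or 101 cells and it ran from 0.631% to 4.04%. Levels are given per 1000000 UMIs other than Col1a1 and Col1a2.

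Lox and Loxl1 were the genes that differed most along this ranking. Lox in the N-PRα-KO library was at 62.8, 43.1, 53.4, 114 and 290 CPM from the lowest to the highest bin. It stayed low over 3 bins and was 4.61-fold higher in the highest bin than in the lowest (log2 2.20, 1.87 to 2.55; 3.46 in cells with at most 15% mitochondrial UMIs, a limit chosen after seeing the data). In the WT library it was at 204, 227, 284, 354 and 394 CPM, a steady series with a log2 difference of 0.95 (0.62 to 1.29). Even the highest N-PRα-KO bin thus lay near the middle WT bin. Loxl1 was at 22.5, 27.2, 42.4, 57.8 and 70.9 CPM over the N-PRα-KO bins (1.65, 1.05 to 2.28), and at 16.96 and 46.6 CPM in the lowest and highest WT bins (1.46, 0.34 to 2.69; 10 and 24 UMIs).

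Within N-PRα-KO cluster 4 the Lox difference was wider. The lowest of its bins had 6 Lox UMIs (5.76 CPM) in 127 cells and the highest had 182 UMIs (233 CPM) in 126 cells, a log2 difference of 5.34 (4.19 to 6.80). The highest bin held 69.7% of the cluster's Lox UMIs and 17.7% of its UMIs of all genes, and 44.4% of its cells had a Lox UMI, against 4.72% of cells in the lowest bin. The log2 difference was 1.60 (1.13 to 2.08) within N-PRα-KO cluster 17, 1.61 (1.21 to 2.01) within WT cluster 14 and 1.86 (1.13 to 2.65) within WT cluster 27.

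The other genes differed less along the ranking. Serpinh1 was at 853, 1012, 1132, 1179 and 1137 CPM over the N-PRα-KO bins (log2 highest over lowest 0.41, 0.30 to 0.53) and at 373, 477, 574, 585 and 668 CPM in the WT library (0.84, 0.59 to 1.09). Plod1 was at 95.6 CPM in the lowest and 185 CPM in the highest N-PRα-KO bin (0.95, 0.63 to 1.27), and at 57.7 and 105 CPM in the WT bins (0.86, 0.22 to 1.53). For P4ha1 the log2 difference was 0.86 (N-PRα-KO; 0.35 to 1.39) and -0.44 (WT; -1.38 to 0.46). P4ha2 in the N-PRα-KO library stood at 23.9 and 23.6 CPM in the lowest and highest bins. Loxl2 peaked in the middle N-PRα-KO bin at 385 CPM, with 260 CPM in the lowest and 306 CPM in the highest.

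Several of these differences depended on the cells used. The N-PRα-KO value for P4ha1 was 0.29 (-0.33 to 0.90) within cluster 4, 1.96 (0.84 to 3.22) within cluster 17, 0.38 (-0.20 to 0.96) at the limit of 15% mitochondrial UMIs and 0.37 (-0.54 to 1.29) after thinning; of these 4 intervals, only that of cluster 17 lay above 0. The WT value for Serpinh1 was 0.75 (0.43 to 1.07) within cluster 14, but 0.30 (-0.10 to 0.69) within cluster 27 and 0.30 (-0.09 to 0.69) at the 15% limit. The N-PRα-KO value for Serpinh1 lay between 0.20 and 0.85 over 5 such settings, and that for Plod1 between 0.63 and 1.35. The WT interval for Plod1 covered 0 within cluster 27 (0.80, -0.42 to 2.06), and that for Loxl1 covered 0 at the 15% limit (1.04, -0.48 to 2.74) and after thinning (1.80, -0.15 to 4.30).

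At least 2-fold higher in the highest than in the lowest bin were 2 of 10 genes in the N-PRα-KO library, where 2.68% of 7191 genes were and 3.89% were as much lower, and 1 of the 8 that reached 20 CPM in the WT library, where 8.09% of 7022 genes were and 702 of them were as much lower. The WT gene was Loxl1, which was below 20 CPM in the lowest bin (16.96 CPM) and so could enter only by differing. None of the genes counted was at least 2-fold lower. The median log2 difference was 0.46 in N-PRα-KO (-0.01 over all genes) and 0.70 in WT (0.03 over all genes). Over single cells the Spearman rho with the collagen share was 0.26 in 949 N-PRα-KO cells and 0.20 in 504 WT cells for Lox, 0.18 in N-PRα-KO and 0.22 in WT for Serpinh1, and between -0.04 and 0.16 for the other 8 genes. Cells of a library share its preparation, and these are weak correlations in sparse counts. Beside them, the summed fibroblast markers were at 7842 CPM in the lowest and 15798 CPM in the highest N-PRα-KO bin, and at 7766 and 17360 CPM in the WT bins, and WT oligodendrocyte-lineage markers at 743 CPM in the lowest and 242 CPM in the highest bin. Clusters 14 and 27 gave 89 and 7 cells of the lowest WT bin and 50 and 50 of the highest. Clusters 4 and 17 gave 112 and 77 cells of the lowest N-PRα-KO bin and 116 and 73 of the highest. Mitochondrial UMIs were 18.3% in the lowest and 14.7% in the highest WT bin, and 15.2% and 13.2% in the N-PRα-KO bins. Apart from the values within clusters and at the 15% limit above, the part of these features in the relation was not tested.

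**Figure D4:**
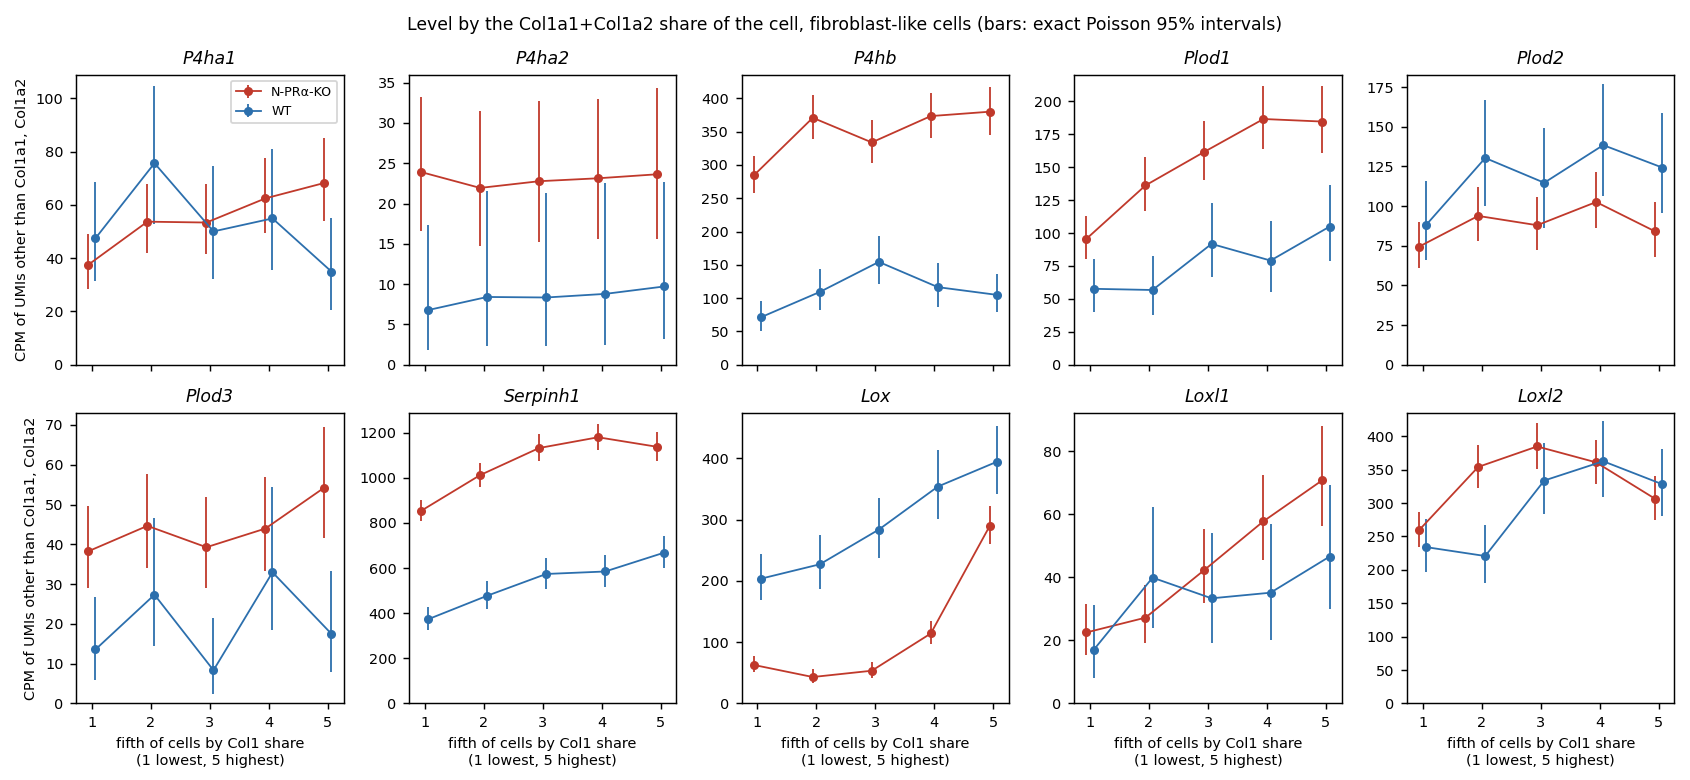
Level of each gene, in CPM of UMIs other than Col1a1 and Col1a2, in 5 bins of fibroblast-like cells ordered from the lowest to the highest collagen share; red is the N-PRα-KO library, blue the WT library, and bars are exact Poisson 95% intervals. Lox in the N-PRα-KO library is nearly flat over the first 3 bins and reaches 290 CPM in the last, while the WT line climbs steadily to 394 CPM.

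The 25 other genes of collagen processing were read in the same way. Of the 16 at 20 CPM or more, 3 were at least 2-fold higher in N-PRα-KO fibroblast-like cells (16.0% of all genes), none was as much lower (8.33%), and the median log2 ratio was 0.54. P3h4, which acts with P3h3 in lysyl hydroxylation, was at 32.7 CPM in N-PRα-KO and 10.5 CPM in WT, the prolyl 3-hydroxylase P3h1 at 30.4 CPM in N-PRα-KO and 10.5 CPM in WT, and Ppib, a cyclophilin that isomerises proline bonds, at 234 CPM in N-PRα-KO and 83.5 CPM in WT. P3h4 and P3h1 reached 20 CPM only in the N-PRα-KO library, where they were high, so the count describes these libraries and supports nothing. With the GC trend removed the median log2 ratio over the 16 genes was 0.11. Crtap, the partner of P3h1 and Ppib, stood at 188 CPM in both libraries, a comparison chosen after its value was seen. Against the collagen share, 2 of 17 in the N-PRα-KO library were at least 2-fold higher in the highest bin (2.68% of all genes; Adamts2, a procollagen N-proteinase, and Pcolce, an enhancer of procollagen C-proteinase) and 4 of 13 in the WT library (8.09%; Creb3l1, Pcolce, Sec24d and P3h3), with medians of 0.74 (N-PRα-KO) and 0.73 (WT).

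General chaperones of the endoplasmic reticulum gave a median log2 ratio of 0.04 over 12 genes in fibroblast-like cells. Of these, 1 was at least 2-fold higher (16.0% of all genes) and 1 at least 2-fold lower (8.33%). Calr was at least 2-fold higher (808 CPM in N-PRα-KO and 356 CPM in WT), Dnajb9 at least 2-fold lower (66.0 CPM in N-PRα-KO and 172 CPM in WT), and Hspa5, the main stress-induced chaperone, stood at 877 CPM in N-PRα-KO and 1323 CPM in WT (-0.59); it too was singled out after its value was seen. Targets of hypoxia-inducible factors gave a median of -0.20 over the 7 of 10 genes at 20 CPM or more. Slc2a1 alone was at least 2-fold higher (85.9 CPM in N-PRα-KO and 14.04 CPM in WT), where 16.0% of all genes were. It reached 20 CPM only in the N-PRα-KO library and could enter only by differing. Pdk1 alone was at least 2-fold lower (46.5 CPM in N-PRα-KO and 113 CPM in WT), where 8.33% were. Against the collagen share, the chaperones had a median log2 difference of 0.07 in N-PRα-KO and 0.40 in WT. Hypoxia targets had -0.22 in N-PRα-KO and -0.14 in WT, and all genes -0.01 in N-PRα-KO and 0.03 in WT.

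Over the 18 points given by 9 classes in 2 libraries, the gene outside the list whose log2(CPM + 1) followed Lox most closely was Tbx15 (Pearson r 0.97), and for Serpinh1 it was Uaca (0.94), for Loxl2 Kdelr3 (0.93), for Loxl1 Col23a1 (0.94) and for Plod2 Klhl42 (0.96). For P4hb it was Mxd4 (0.93), for Plod3 Rhog (0.94), for P4ha2 Slc16a11 (0.91), for Plod1 Dguok (0.88) and for P4ha1 Ppt1 (0.81). Among the 10 genes the closest pairs were Serpinh1 with Loxl2 (0.86) and P4ha2 with Loxl1 (0.82), and Plod2 and Plod3 ran most oppositely (-0.55). The points share 2 libraries, so a difference between libraries common to many genes enters these values.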

How the data were processed

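The authors deposited counts of unique molecules per cell and gene, made in separate runs on GRCm38 and GENCODE M19 with BD's Rhapsody WTA software, release 1.10 (N-PRα-KO) and 1.10.1 (WT), per the file headers. The aligner and the use of strand are not given in the sources used here. Positions of genes and transcript GC content come from GENCODE M21 on the same build.

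A cell was kept if 300 or more genes were detected and no more than 25% of UMIs were mitochondrial. Scrublet (scanpy 1.11.5) then removed 10 cells (0.238%) from the 4196 of N-PRα-KO and 174 (1.73%) from the 10069 of WT. The libraries were clustered together without integration (2000 variable genes per library, leaving out mitochondrial genes, the 10 enzyme genes, the other collagen-processing genes, Col1a1 and Col1a2; 30 components, 20 neighbours, Leiden resolution 1, leidenalg 0.10.2), giving 34 clusters named from marker lists. The thresholds for naming were chosen with the clusters in view, and folds were changed to the median over clusters because a first version left oligodendrocyte precursor clusters unnamed. Omp, Ly6g and Retnlg have no column in the WT table and were taken as 0.

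UMIs were summed per class and library. CPM carry exact Poisson intervals, shares exact Clopper-Pearson intervals and log2 ratios exact conditional binomial intervals, all at 95%; counts under 3 were set to 3 in ratios. PCR and capture error is not covered. Ratios use genes that reached 20 CPM in at least 1 library, and the interval code was tested on simulated data. The GC trend was fitted by lowess (statsmodels 0.14.6). Named outside the 10 genes are those past 2-fold in each further list, at most 6 by size, and the closest gene to each enzyme gene; further genes were named as comparisons after their values were seen. Genes and lists were chosen with earlier results of these data known. Alternatives were other limits on mitochondrial UMIs and genes, thinning, scaling, clustering, doublet handling and bins.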

Additional observations from a re-analysis of the deposited data

Results flagged for a closer look

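In the N-PRα-KO library, choroid-plexus-like cells had Loxl1 at 44.1 CPM (24 UMIs, interval 28.3 to 65.7) in 42 cells, a class too small for the comparison between libraries. Among the compared N-PRα-KO classes, arachnoid-barrier-like (49.4 CPM) and fibroblast-like cells (42.4 CPM) both lay within that interval, and mural-like cells were next (16.6 CPM). The WT library had 1 such cell, with 0 Loxl1 UMIs.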

How the results depend on the processing

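With 1 library per genotype, no value here can be set against variation between animals. No paired analysis was possible because each genotype has 1 library and the labels give no replicate numbers. In N-PRα-KO fibroblast-like cells 4 of 10 genes were at least 2-fold higher (16.0% of all genes). This count was 0 with the GC trend removed and 1 in the clusters led by Aldh1a2. The count at least 2-fold lower was 1 (8.33% of all genes), and 0 in those clusters. No share over all genes is given for the GC-removed values or the Aldh1a2 clusters. Among 673 recomputed library ratios, 586 stayed within the counting interval, and 86 moved outside it or changed sign without being past 2-fold. The 1 ratio past 2-fold that reversed was Loxl2 in arachnoid-barrier-like cells, which became -0.61 (-3.13 to 1.39) after thinning. Settings differed in this. With the GC trend removed 37 moved and 30 stayed. In the clusters led by Aldh1a2 7 moved and 3 stayed, and in those led by Lum 5 moved and 5 stayed. At Leiden resolution 2 and with Scrublet calls kept, 67 stayed in each. Both settings sum nearly the same cells as the main one, so these ratios, which are counted in the 586, could hardly move. At resolution 2 the fibroblast-like UMIs were unchanged (6574007 in N-PRα-KO and 2564216 in WT). Keeping Scrublet calls returned at most 10 N-PRα-KO and 174 WT cells. Of 89 recomputed differences along the collagen share, 59 stayed and 30 moved. Genes at least 2-fold higher with collagen were 2 of 10 in the N-PRα-KO library and became 5 of 9 within N-PRα-KO cluster 17. No share over all genes is given for this and the next settings, so these counts are no result about the enzymes. In the WT library 1 of 8 became 4 of 8 after thinning, 3 of 9 within cluster 14 and 3 of 8 at a limit of 15% mitochondrial UMIs. At that limit Lox in fibroblast-like cells was at a log2 ratio of -1.78 (641 N-PRα-KO and 189 WT cells), and its difference along the collagen share was 3.46 in the N-PRα-KO library. The median log2 ratio used for median-of-ratios scaling lay between -0.07 and -0.20 by class, so that scaling moves every ratio of a class up by that amount. A limit of 10% mitochondrial UMIs left 80 N-PRα-KO and 10 WT fibroblast-like cells and gave no fibroblast-like value, and mural-like cells gave none under thinning or at 1000 genes. The limits at 15%, the 20 CPM limit on the mean of both libraries and the splits by Lum and Aldh1a2 were chosen after seeing the data.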
